A study of Ambystoma mexicanum with 12 samples.

Results

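The effect of injury within miR-200a inhibitor cords was taken as the difference between axolotl spinal cords collected 4 days post injury (4 dpi) and uninjured cords, where both had been given an inhibitor of the microRNA miR-200a. It was measured over 12550 of the 15091 gene symbols in the expression table, those averaging 1 TPM or more over the libraries compared, where TPM is a transcript's share of a library after correction for its length. The 6 libraries, of 12 in the series, were replicates 5, 6 and 7 of the 4 dpi inhibitor group and replicates 5, 6 and 7 of the uninjured inhibitor group. All animals were white axolotls, Ambystoma mexicanum, too small for their sex to be told. For the 4 dpi inhibitor group, a synthetic miR-200a inhibitor was injected into the central canal and electroporated, first when the cord was injured and again before collection. A piece of cord was cut out, and the tissue around the lesion was dissected at 4 dpi. The uninjured inhibitor group is labelled as injected with the miR-200 inhibitor and not injured. How long after injection these cords were taken, whether they were electroporated and whether skin and muscle above the cord were opened is not given in the sources used here. Effects of electroporation, of the number and time of injections and of surgery around the cord therefore cannot be told apart from that of the cord injury. Each library pooled 10 animals by the labels, while the methods of the study give another number, so the spread given here is between pools. The other 6 libraries, from cords at 4 dpi with a control inhibitor and from uninjured cords, enter only the comparison of injury effects near the end.

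Ependymoglial cells line the central canal of the axolotl cord, carry the filament protein GFAP and, after an injury, divide and move to rebuild the tube through which axons regrow. AP-1, a dimer of FOS and JUN family proteins, is among the first transcription factors switched on by injury in many tissues. miR-200a belongs to the miR-200 family, whose members lower mRNAs that carry matches to their seeds, ZEB1 and ZEB2 among the classical ones. The study asked how miR-200a restrains JUN in the glia of the regenerating cord. The comparison of 4 dpi with uninjured inhibitor cords shows which transcripts differed between injured and uninjured cords, with the inhibitor given on both sides. Symbols come from the best human protein match of each assembled contig, so members of gene families such as keratins, lectins and heat shock proteins may be merged or misnamed, and the roles given here are those known in human and mouse.

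The libraries differed in ways that touch every result. Between 12719 and 12942 symbols reached 1 TPM in the 4 dpi inhibitor libraries, against 11495 and 11074 in uninjured inhibitor libraries 5 and 7 and 12539 in uninjured inhibitor library 6. Of the tested genes, 55, 50 and 68 were listed at 0 in 4 dpi inhibitor libraries 5, 6 and 7, against 131, 61 and 247 in uninjured inhibitor libraries 5, 6 and 7. In a principal component analysis the first component took 64.5% of the variance, with the 4 dpi libraries between -54.3 and -48.3 and the uninjured inhibitor libraries at 56.3, -4.48 and 103, so that uninjured inhibitor library 6 lay between its own group and the injured one. Correlation of log2 levels across genes was 0.962 to 0.971 within the 4 dpi inhibitor group, 0.923 to 0.960 within the uninjured inhibitor group and 0.874 to 0.947 between groups. Sequencing depth is not recoverable from TPM, so no counting interval is given.

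Tissue markers showed neural tissue together with other tissues in both groups. Summed over the members in the table, neuron genes came to 1929.85 to 2198.5 TPM in 4 dpi inhibitor libraries, against 3294 to 4490.5 TPM in uninjured inhibitor libraries, and ependymoglial genes to 1276 to 1496 TPM against 1573 to 2093 TPM. Skeletal muscle genes summed to 13935 to 16125 TPM at 4 dpi, against 12308 to 21372 TPM in uninjured inhibitor cords, and skin and keratin genes to 5988 to 13789.5 TPM against 2379 to 6668 TPM. The muscle genes therefore summed to more TPM than the neuron genes in every library of both groups, and the muscle sums overlapped between groups. Such sums are shares of transcripts, not amounts of tissue. The study stated that its RNA-seq data held no genes particular to muscle or skin. In bulk RNA, fewer cells of a type and less RNA per cell cannot be told apart.

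At 4 dpi, 642 genes were higher and 301 genes were lower than in uninjured inhibitor cords (limma on log2(TPM + 0.1), Benjamini-Hochberg adjusted p under 0.05, n = 3 libraries per group), 5.12% and 2.40% of the genes tested. At this threshold a gene is referred to here as called. The log2 fold change was at least 1 for 520 of the genes called higher, and at most -1 for 208 of those called lower. No called gene had overlapping libraries, and over all tested genes the 2 groups did not overlap for 3746 genes in the higher direction (29.8%) and 1285 in the lower direction (10.2%). On TPM as deposited, the middle gene lay at a log2 fold change of 0.25. This median ran with level, with 0.57 for genes of 1 to 3 TPM, 0.22 for genes of 10 to 30 TPM and 0.00 for genes of 100 TPM or more. Scaling by median of ratios brought the median of all genes to -0.01 and turned the split of calls, with 415 genes higher (3.31%) and 620 lower (4.94%), so that 40.1% of calls were higher in place of 68.1%. All 415 higher genes after scaling were among the 642, all 301 lower genes remained among the 620, and none changed sign. This largely follows from the scaling itself, which divides each library by 1 number and lowers nearly all log2 fold changes alike. Which and how many genes passed depended on single libraries. Without uninjured inhibitor library 6, 3113 genes were higher and 634 lower, whereas without 4 dpi inhibitor library 7, 13 were higher and 1 was lower, with counts between these for the other 4 libraries. Of the 169 called genes named here, 9 stayed called in each of the 6 fits without 1 library, LEP, KRT17, RRAD, PRTN3, CXCR1, PRG2, HMOX1, CLEC4M and CPN2. All 169 kept their direction in these fits, which the lack of overlap between groups fixes in advance. Of the 943 called genes, 761 have the same symbol in the RefSeq axolotl annotation. KRT17, PRTN3, CXCR1, PRG2, CLEC4M and CPN2 do not, so their naming is less certain. The same holds for MMP1, MMP13, CLDN4, KRT15, DSG2, SNAP25, GJB6 and NES, among other genes named below. After scaling 24 of the 169 lost the call, at adjusted p-values between 0.0506 for OLFM4 and 0.151 for POLE2. The others were BAX, CD22, CHSY1, COL17A1, CTSB, CXCL10, CYBA, DSP, ETS1, F13A1, FOSL1, GMNN, JUP, KRT10, KRT15, LEF1, NCAN, NES, NUF2, PKP1, PSAP and SMO. Most calls named are therefore given with the values of all 6 libraries, in the order of libraries 5, 6 and 7 of each group. Some are given by their log2 fold change alone, which does not show their spread between libraries. The ± after a log2 fold change is its standard error from the fit.

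**Figure D1:**
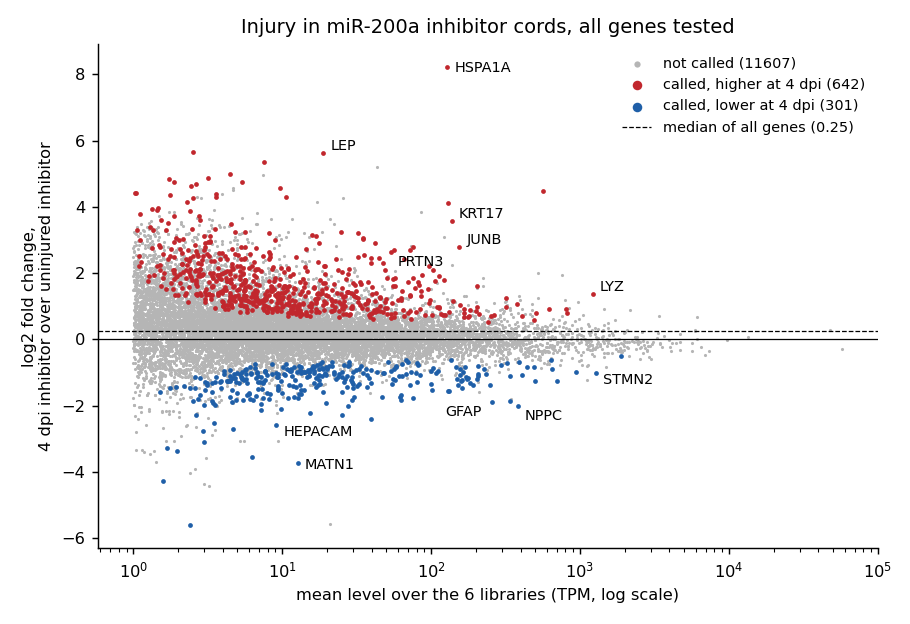
Log2 fold change of 4 dpi inhibitor over uninjured inhibitor libraries (vertical axis) against the mean level over the 6 libraries in TPM (horizontal axis, log scale) for 12550 genes, with the 642 genes called higher in red, the 301 called lower in blue and the others in grey. The dashed line is the median of all genes, 0.25, and the highest point is HSPA1A at 8.23.

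Gene lists were described by how many tested members were called in each direction, to be read against 5.12% and 2.40% of all genes. They were also described by the median of their log2 fold changes, to be read against 0.25. That reference varied with level, from 0.57 for genes of 1 to 3 TPM to 0.00 for genes of 100 TPM or more. Members called without 1 library are to be read against all genes called in that fit. Of 12550 genes, these were 94, 55 and 13 higher and 27, 19 and 1 lower without 4 dpi inhibitor libraries 5, 6 and 7. Without uninjured inhibitor libraries 5, 6 and 7 they were 151, 3113 and 295 higher and 41, 634 and 106 lower. The highest medians were those of cytokines and chemokines at 1.79, granulocyte genes at 1.78 and AP-1 and immediate early genes at 1.41, and the lowest were those of motile cilia genes at -0.43, synapse and ion channel genes at -0.39 and cholesterol synthesis at -0.35. The 38 lists together held 1078 tested genes, of which 118 were called higher and 37 lower.

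**Figure D2:**
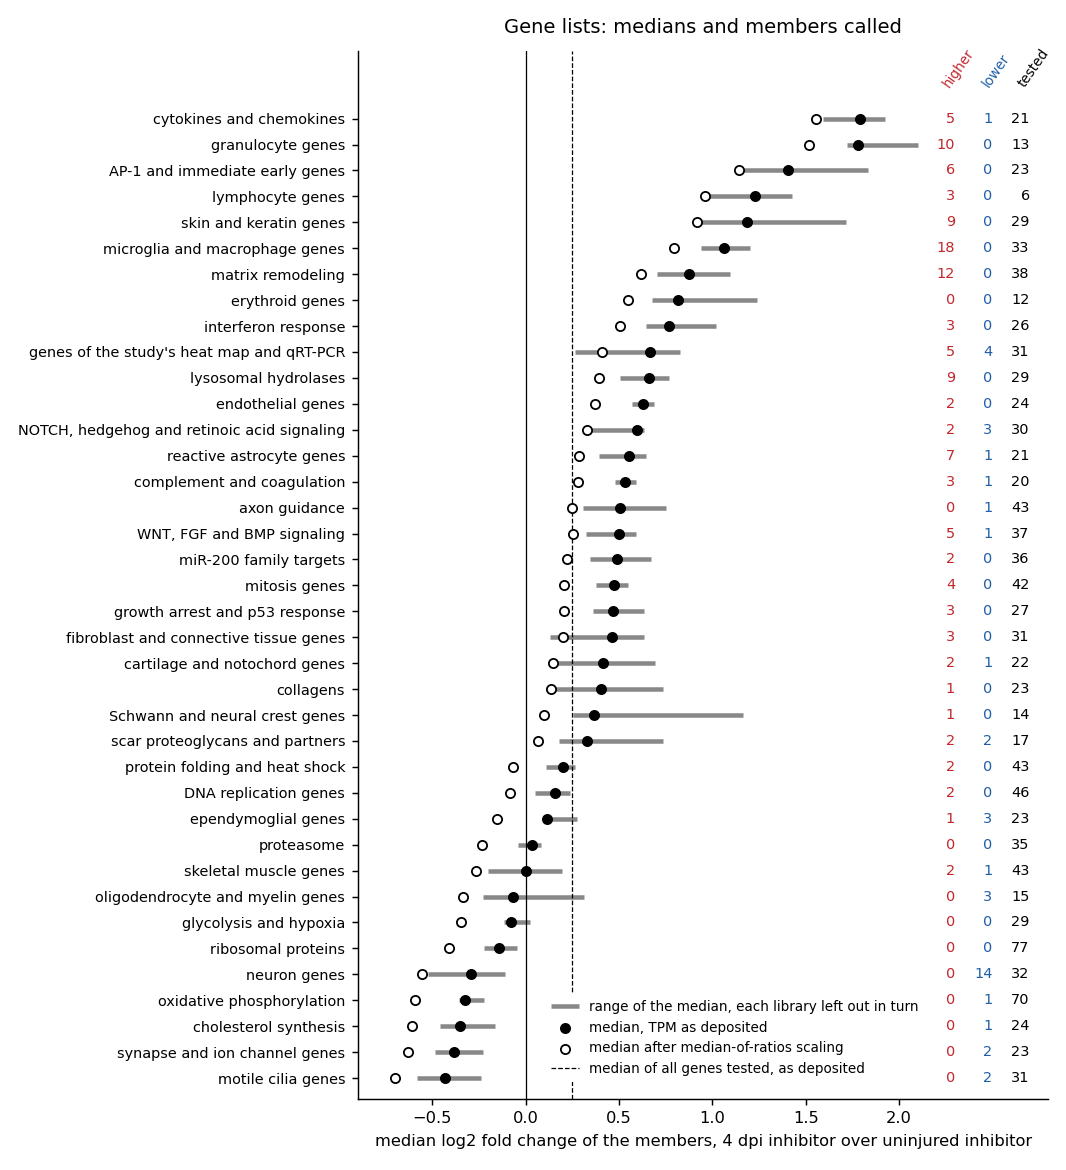
Median log2 fold change of the members of 38 gene lists (horizontal axis), 4 dpi inhibitor over uninjured inhibitor, on TPM as deposited (filled circles) and after median-of-ratios scaling (open circles), with grey bars for the range of the median when each of the 6 libraries is left out in turn and the dashed line for all genes tested, 0.25. Numbers at the right give the members called higher, called lower and tested, 10, 0 and 13 for granulocyte genes and 0, 14 and 32 for neuron genes.

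AP-1 and immediate early genes, the first response genes of stimulated cells, were higher in 6 of 23 tested members and lower in none, with a median of 1.41, or 1.14 after scaling. JUNB is an AP-1 subunit and partner of FOS. It had 158, 312 and 339 TPM in 4 dpi inhibitor libraries, against 25.6, 55.5 and 35.8 TPM in uninjured inhibitor libraries (log2 fold change 2.79 ± 0.37, adjusted p = 0.0111). Its lowest 4 dpi library was nearly 3 times its highest uninjured inhibitor library. FOSL2 is a FOS family partner of JUN proteins. It had 14.9, 16.1 and 11.7 TPM in 4 dpi inhibitor libraries, against 1.12, 4.58 and 0.51 TPM in uninjured inhibitor libraries (3.23 ± 0.66, adjusted p = 0.0338), and uninjured inhibitor library 6 lay closest to the injured cords. FOSL1, its relative, had 3.63, 6.41 and 18.2 TPM at 4 dpi, against 0.55, 1.76 and 1 TPM in uninjured inhibitor cords (2.79 ± 0.62, adjusted p = 0.0423), with 4 dpi library 7 far above the other 2. ATF3, a stress-induced partner of JUN proteins and a marker of injured neurons, had 6.41, 6.83 and 7.52 TPM at 4 dpi, against 1.35, 2.43 and 2.2 TPM in uninjured inhibitor cords (1.78 ± 0.27, adjusted p = 0.0163), and its 4 dpi libraries lay close together. SOCS3 is the feedback inhibitor of STAT3 signaling. It had 13.6, 33.5 and 38.7 TPM in 4 dpi inhibitor libraries, against 1.45, 5.36 and 2.85 TPM in uninjured inhibitor libraries (3.16 ± 0.54, adjusted p = 0.0217). ZFP36 speeds the decay of cytokine mRNAs. It had 17.2, 30.9 and 39.2 TPM at 4 dpi, against 1.96, 10.4 and 1.39 TPM in uninjured inhibitor cords (3.12 ± 0.7, adjusted p = 0.043). FOS itself did not pass, at 2.11, 25.2 and 25.1 TPM at 4 dpi, against 0.74, 2.33 and 1.73 TPM in uninjured inhibitor cords, where 4 dpi library 5 lay within the uninjured inhibitor range (2.85 ± 0.93, adjusted p = 0.0904). JUN is the target the study assigned to miR-200a. It had 40.9, 78.3 and 59.3 TPM in 4 dpi inhibitor libraries, against 21.4, 33.8 and 27.1 TPM in uninjured inhibitor libraries, without overlap but short of the threshold (1.09 ± 0.28, adjusted p = 0.0548). JUND, with 18.2, 32.4 and 32.6 TPM at 4 dpi, against 17.5, 24.5 and 17.4 TPM in uninjured inhibitor cords, overlapped between groups. EGR1, the zinc finger early gene, also had its lowest injured level in library 5 and overlapped, at 16, 65.5 and 72.1 TPM at 4 dpi, against 7.45, 19 and 9.79 TPM in uninjured inhibitor cords. BTG2, the most abundant member, had 241, 309 and 282 TPM at 4 dpi, against 207, 304 and 202 TPM in uninjured inhibitor cords (0.24 ± 0.2, adjusted p = 0.407). The members called were 5, 0 and 0 without 4 dpi libraries 5, 6 and 7, and 2, 11 and 3 without uninjured inhibitor libraries 5, 6 and 7, while the median stayed between 1.13 and 1.84.

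Granulocyte genes gave the highest share of calls of all lists, with 10 of 13 tested members higher and none lower, a median of 1.78 (1.52 after scaling), and 9 higher calls after scaling. PRTN3 is a serine protease of neutrophil granules. It had 79.4, 93.9 and 104 TPM in 4 dpi inhibitor libraries, against 15.6, 16 and 12.6 TPM in uninjured inhibitor libraries (log2 fold change 2.64 ± 0.18, adjusted p = 0.00448). CXCR1 is the neutrophil receptor for interleukin 8. It had 32.2, 43.8 and 40.3 TPM in 4 dpi inhibitor libraries, against 6.51, 7.88 and 6.95 TPM in uninjured inhibitor libraries (2.42 ± 0.19, adjusted p = 0.00448). PRG2, the major basic protein of eosinophils, had 134, 156 and 186 TPM at 4 dpi, against 33.5, 30.2 and 37.6 TPM in uninjured inhibitor cords (2.22 ± 0.18, adjusted p = 0.00448). In these 3 genes every library at 4 dpi stood more than 3-fold above every uninjured inhibitor library. LYZ is lysozyme, the most abundant member. It had 1609.6, 1744 and 1906 TPM in 4 dpi inhibitor libraries, against 715, 614 and 718 TPM in uninjured inhibitor libraries (1.36 ± 0.13, adjusted p = 0.00572). CSF3R, the receptor for granulocyte colony-stimulating factor, had 3.22, 2.79 and 5.17 TPM at 4 dpi, against 0, 0.156 and 0 TPM in uninjured inhibitor cords, and was listed at 0 in 2 of 3 uninjured inhibitor libraries. MPO, myeloperoxidase, had 7.79, 10.1 and 10.1 TPM at 4 dpi, against 2.09, 0.795 and 2.6 TPM in uninjured inhibitor cords (2.43 ± 0.41, adjusted p = 0.0219). CAMP, the antimicrobial peptide cathelicidin, had 169, 227 and 183 TPM at 4 dpi, against 109, 92.4 and 64.4 TPM in uninjured inhibitor cords (1.15 ± 0.22, adjusted p = 0.0298). PRG3, BPI and OLFM4 were also called higher, with log2 fold changes of 1.78, 1.11 and 1.37. PRTN3, CXCR1, PRG2, MPO, CAMP and BPI do not appear under the same symbol in the RefSeq axolotl annotation, so their naming is less certain. LTF, lactoferrin, had 6.55, 5.09 and 0 TPM at 4 dpi, against 0, 6.64 and 2.55 TPM in uninjured inhibitor cords and showed no order between groups. The summed level of the list was 2159, 2399 and 2544 TPM at 4 dpi, against 930.0, 836 and 884 TPM in uninjured inhibitor cords, mostly from LYZ. Members called were 4, 4 and 3 without 4 dpi libraries 5, 6 and 7 and 6, 12 and 9 without uninjured inhibitor libraries 5, 6 and 7.

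**Figure D3:**
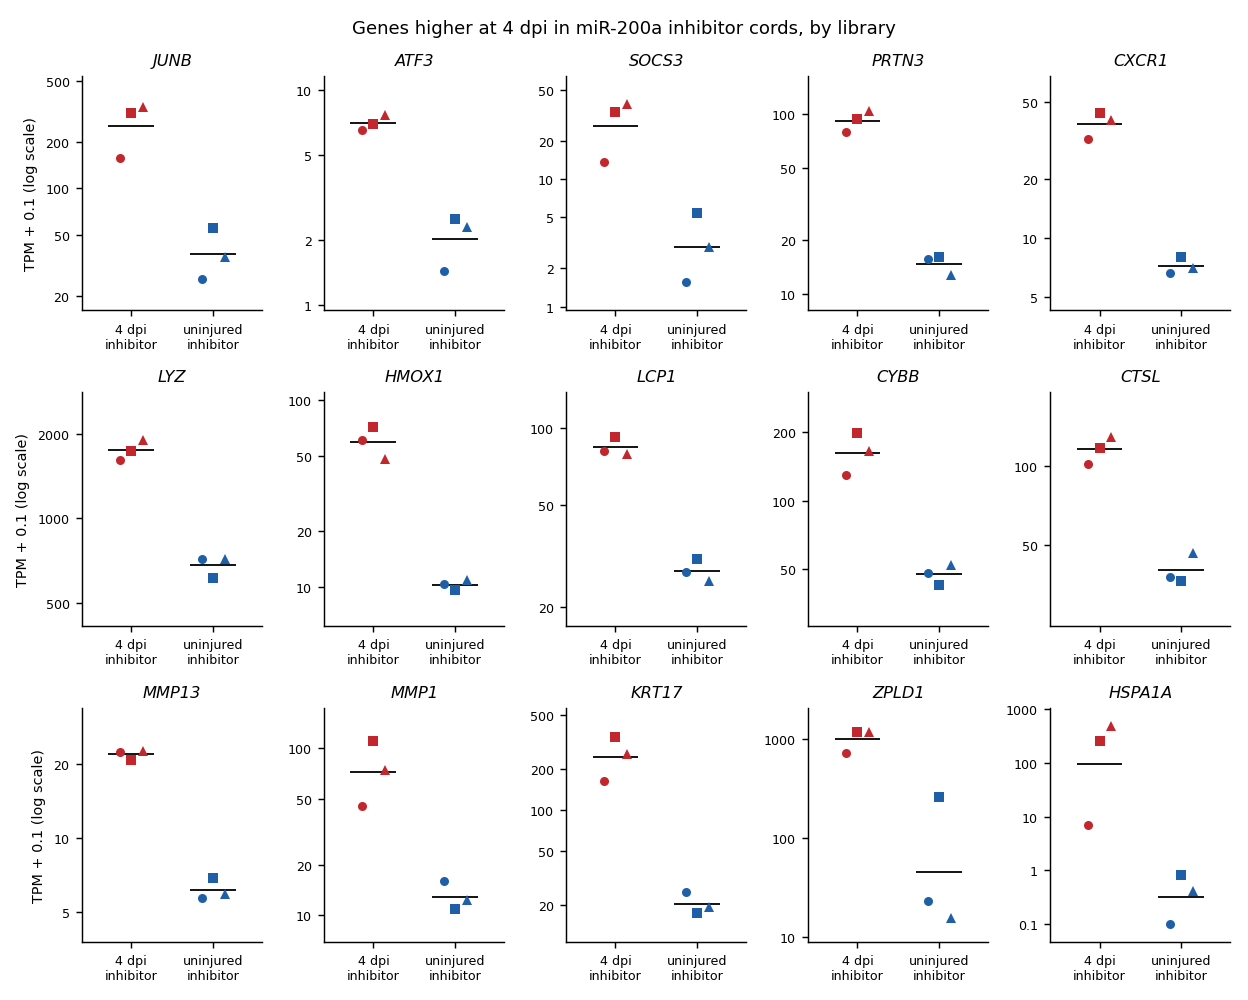
TPM + 0.1 (vertical axes, log scale) of 15 genes called higher at 4 dpi, for the 4 dpi inhibitor libraries (red) and the uninjured inhibitor libraries (blue), with circles, squares and triangles for libraries 5, 6 and 7 and lines for the mean on the log scale. The groups do not overlap in any panel, and ZPLD1 and HSPA1A show wide spreads within a group, from 15.3 to 256 TPM for ZPLD1 in uninjured inhibitor cords and from 6.81 to 497 TPM for HSPA1A at 4 dpi.

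Microglia and macrophage genes were higher in 18 of 33 tested members and lower in none, with a median of 1.06 (0.80 and 15 higher calls after scaling). HMOX1 is heme oxygenase, which macrophages raise when they take up red cells. It had 61, 71.3 and 48.5 TPM in 4 dpi inhibitor libraries, against 10.3, 9.5 and 10.8 TPM in uninjured inhibitor libraries (log2 fold change 2.54 ± 0.19, adjusted p = 0.00448). LCP1 is the leukocyte actin bundler L-plastin. It had 81.2, 92.1 and 78.9 TPM in 4 dpi inhibitor libraries, against 27.2, 30.6 and 25.1 TPM in uninjured inhibitor libraries (1.6 ± 0.16, adjusted p = 0.00683). MRC1, the mannose receptor of macrophages, had 29.5, 28.4 and 24.3 TPM at 4 dpi, against 9.87, 9.75 and 9.07 TPM in uninjured inhibitor cords (1.5 ± 0.16, adjusted p = 0.00685). The uninjured inhibitor libraries of these 3 genes differed little among themselves, library 6 included. Of the genes for the phagocyte NADPH oxidase, CYBB, CYBA and NCF1 rose, with log2 fold changes of 1.77 ± 0.19 for the membrane subunit CYBB, 0.93 ± 0.18 for CYBA and 1.95 ± 0.34 for NCF1, while NCF4 did not pass (0.96 ± 0.36, adjusted p = 0.116). CYBB, the most abundant of these 3, had 129.6, 199 and 166 TPM at 4 dpi, against 48.2, 42.6 and 52.3 TPM in uninjured inhibitor cords. SPI1, the transcription factor PU.1 of the myeloid lineage, had 15.4, 19.5 and 18.8 TPM at 4 dpi, against 4.74, 5.82 and 3.76 TPM in uninjured inhibitor cords (1.9 ± 0.22, adjusted p = 0.00723). CD68, a lysosomal membrane protein of macrophages, had 19.6, 31 and 19.3 TPM at 4 dpi, against 4.25, 7.87 and 3.43 TPM in uninjured inhibitor cords (2.2 ± 0.34, adjusted p = 0.0169). TYROBP and FCER1G, signaling adaptors of myeloid receptors, had log2 fold changes of 1.18 ± 0.16 and 2.57 ± 0.29. AIF1, CSF1R and C1QC, often used to find microglia, did not pass. AIF1 had 189.7, 253 and 197 TPM at 4 dpi, against 177, 125 and 226 TPM in uninjured inhibitor cords and overlapped. CSF1R, the receptor for colony-stimulating factor 1, had 9.28, 10.8 and 8.75 TPM at 4 dpi, against 5.87, 6.11 and 5.61 TPM in uninjured inhibitor cords (0.7 ± 0.18, adjusted p = 0.0543). C1QC, the most abundant member, had 241, 336 and 273 TPM at 4 dpi, against 220.5, 165 and 233 TPM in uninjured inhibitor cords (0.46 ± 0.19, adjusted p = 0.14). C1QA, another chain of the same complement protein, was called higher and had 109, 124 and 86.2 TPM at 4 dpi, against 40.03, 38.4 and 20.8 TPM in uninjured inhibitor cords (1.73 ± 0.28, adjusted p = 0.0195). The summed level was 1557 to 2200.2 TPM at 4 dpi, against 824 to 1173 TPM in uninjured inhibitor cords. Members called were 7, 5 and 1 without 4 dpi libraries 5, 6 and 7 and 9, 21 and 14 without uninjured inhibitor libraries 5, 6 and 7.

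Lysosomal hydrolases, which degrade what phagocytes take up, were higher in 9 of 29 members and lower in none, with a median of 0.66 (0.39 and 6 higher calls after scaling). The summed level was 4617 to 5735 TPM at 4 dpi, against 2703 to 3055 TPM in uninjured inhibitor cords, without overlap. CTSL is the cysteine protease cathepsin L. It had 102, 118 and 129 TPM in 4 dpi inhibitor libraries, against 37.5, 36.3 and 46.2 TPM in uninjured inhibitor libraries (log2 fold change 1.54 ± 0.17, adjusted p = 0.00685). CTSC, the cathepsin that activates granule proteases, had 453, 562 and 509 TPM at 4 dpi, against 246, 227 and 256 TPM in uninjured inhibitor cords (1.06 ± 0.14, adjusted p = 0.0107). PLBD1, a phospholipase B-like lysosomal protein, had 129, 148 and 148 TPM at 4 dpi, against 63.4, 45 and 41.8 TPM in uninjured inhibitor cords (1.52 ± 0.19, adjusted p = 0.00998). CTSZ, cathepsin Z, had 73.8, 95.4 and 68.1 TPM at 4 dpi, against 16.1, 27.6 and 13.8 TPM in uninjured inhibitor cords (2.09 ± 0.28, adjusted p = 0.0111). Smaller changes of abundant genes were also called, 0.91 ± 0.14 for the sterol carrier NPC2, 0.91 ± 0.17 for CTSB, cathepsin B, and 0.79 ± 0.13 for PSAP, prosaposin, the most abundant member, with the last 2 not called after scaling. Members called were 3, 2 and 0 without 4 dpi libraries 5, 6 and 7 and 4, 12 and 6 without uninjured inhibitor libraries 5, 6 and 7.

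Cytokines and chemokines were higher in 5 of 21 tested members and lower in 1, with a median of 1.79 (1.55 after scaling). IL11 is an interleukin 6 family cytokine. It had 5.18, 2.94 and 5.23 TPM in 4 dpi inhibitor libraries, against 0.0603, 0.193 and 0.22 TPM in uninjured inhibitor libraries (log2 fold change 4.16 ± 0.51, adjusted p = 0.0096). IL1B, the inflammatory cytokine interleukin 1 beta, had 7.65, 14.1 and 9.98 TPM at 4 dpi, against 3.78, 2.28 and 2.33 TPM in uninjured inhibitor cords (1.88 ± 0.3, adjusted p = 0.0195). CXCL8, the neutrophil attractant interleukin 8, had 3.66, 9.15 and 6.87 TPM at 4 dpi, against 1.69, 1.42 and 1.28 TPM in uninjured inhibitor cords (2 ± 0.36, adjusted p = 0.0253). CXCL10, an interferon-induced chemokine, had 17.7, 21.6 and 56.5 TPM at 4 dpi, against 6.66, 7.56 and 6.85 TPM in uninjured inhibitor cords (1.98 ± 0.4, adjusted p = 0.0338). The groups did not overlap for any of these 4, nor for CCL5, a chemokine of T cells and macrophages, with 2.77, 2.96 and 3.38 TPM at 4 dpi, against 0.838, 0.596 and 0.509 TPM in uninjured inhibitor cords (2.09 ± 0.35, adjusted p = 0.0217). PTN, the growth factor pleiotrophin and the most abundant member, fell and had 88.5, 121 and 119.7 TPM at 4 dpi, against 185, 229 and 199.96 TPM in uninjured inhibitor cords (-0.91 ± 0.18, adjusted p = 0.0298). IL1B, CXCL8, CXCL10 and CCL5 are without the same symbol in the RefSeq axolotl annotation, so their naming is less certain. IL6 and TNF did not pass. IL6 had 0.943, 2.72 and 5.61 TPM at 4 dpi, against 0.428, 0 and 1.95 TPM in uninjured inhibitor cords. TNF had 1.47, 1.55 and 2.55 TPM at 4 dpi, against 0.00933, 0.854 and 0 TPM in uninjured inhibitor cords. The summed level of the list overlapped, at 327 to 464 TPM at 4 dpi and 445 to 527 TPM in uninjured inhibitor cords. Called in the higher direction were 1, 0 and 0 without 4 dpi libraries 5, 6 and 7 and 2, 11 and 3 without uninjured inhibitor libraries 5, 6 and 7.

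Other immune lists held fewer calls. Of 26 interferon response genes 3 were higher, IRF1, IRF7 and DHX58, with log2 fold changes of 1.96 ± 0.34, 1.19 ± 0.23 and 3.4 ± 0.73, and the median was 0.77 (0.51 after scaling). DHX58 had 2.89, 2.13 and 2.18 TPM at 4 dpi, against 0.154, 0.412 and 0 TPM in uninjured inhibitor cords. The size of its change therefore depends on the 0.1 TPM added before taking logs. Without 4 dpi library 5, 6 or 7 none of the 26 was called. Of 6 lymphocyte genes tested 3 were higher. CD2, a T cell adhesion receptor, had 12.1, 17.5 and 15.3 TPM at 4 dpi, against 7.54, 7.47 and 6.17 TPM in uninjured inhibitor cords. GZMA of cytotoxic cells had 3.43, 3.6 and 5.18 TPM at 4 dpi, against 1.65, 1.08 and 1.09 TPM in uninjured inhibitor cords, and CD22 of B cells had 9.29, 19.4 and 12.6 TPM at 4 dpi, against 6.61, 4.3 and 4.27 TPM in uninjured inhibitor cords. None of these was called in any fit without a 4 dpi library, and 22 further lymphocyte genes on the list were below the minimum or had no symbol in the table. Of 20 complement and coagulation genes 3 were higher and 1 was lower. C5AR1 is the receptor for the complement fragment C5a. It had 38.5, 51.8 and 43 TPM in 4 dpi inhibitor libraries, against 9.77, 14.5 and 9.56 TPM in uninjured inhibitor libraries (1.99 ± 0.22, adjusted p = 0.00685). F13A1, the clotting factor XIII chain that macrophages also make, had 109, 173 and 153 TPM at 4 dpi, against 81.6, 66.9 and 69.8 TPM in uninjured inhibitor cords (0.97 ± 0.2, adjusted p = 0.0352). C7, a part of the membrane attack complex, fell and had 11.2, 12.3 and 14.4 TPM at 4 dpi, against 24.2, 20.6 and 19.97 TPM in uninjured inhibitor cords (-0.77 ± 0.18, adjusted p = 0.0442). FGA, the fibrinogen alpha chain, had 1.63, 2.62 and 1.99 TPM at 4 dpi and was listed at 0 in all 3 uninjured inhibitor libraries. Without 4 dpi library 5 the higher calls were C5AR1 and F13A1, without library 6 C5AR1 alone, and without library 7 none.

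Matrix remodeling genes were higher in 12 of 38 members and lower in none, with a median of 0.87 (0.61 and 10 higher calls after scaling). MMP13 is a collagenase. It had 22.2, 20.7 and 22.3 TPM in 4 dpi inhibitor libraries, against 5.6, 6.78 and 5.81 TPM in uninjured inhibitor libraries (log2 fold change 1.83 ± 0.17, adjusted p = 0.00572), and its 3 injured libraries lay within 2 TPM of each other. MMP1, another collagenase, had 45, 111 and 73.8 TPM at 4 dpi, against 15.9, 10.8 and 12.3 TPM in uninjured inhibitor cords (2.47 ± 0.33, adjusted p = 0.0111). MMP9, a gelatinase that leukocytes release, had 14.3, 13.3 and 11.8 TPM at 4 dpi, against 5.33, 4.31 and 6.62 TPM in uninjured inhibitor cords (1.28 ± 0.21, adjusted p = 0.0206). MMP11 had 8.61, 5.37 and 4.67 TPM at 4 dpi, against 0.089, 0.38 and 0 TPM in uninjured inhibitor cords (4.87 ± 0.65, adjusted p = 0.0111), and was below 1 TPM in every uninjured inhibitor library. PLAU, the plasminogen activator urokinase, had 6.06, 7.8 and 13.2 TPM at 4 dpi, against 1.7, 2.56 and 1.41 TPM in uninjured inhibitor cords. Its receptor PLAUR had 4.92, 7.59 and 5.61 TPM at 4 dpi, against 1.62, 1.41 and 1.38 TPM in uninjured inhibitor cords. Log2 fold changes were 2.16 ± 0.35 for PLAU and 1.95 ± 0.26 for PLAUR, where 4 dpi library 7 was the highest for PLAU. PLAT, the other plasminogen activator of the list, had 6.43, 3.01 and 3.49 TPM at 4 dpi, against 0.308, 2.95 and 0.14 TPM in uninjured inhibitor cords and did not pass (2.64 ± 0.9, adjusted p = 0.0972). FN1, fibronectin, had 31.8, 30.2 and 23.5 TPM at 4 dpi, against 9.35, 13.7 and 10.5 TPM in uninjured inhibitor cords (1.35 ± 0.21, adjusted p = 0.0175). POSTN, the most abundant member, had 507, 630.3 and 567 TPM at 4 dpi, against 378, 475 and 203 TPM in uninjured inhibitor cords and did not pass (0.77 ± 0.3, adjusted p = 0.121). MMP2, with 83.5, 91.1 and 88.2 TPM at 4 dpi, against 74.3, 70.1 and 56.8 TPM in uninjured inhibitor cords, did not pass either (0.39 ± 0.16, adjusted p = 0.13). Members called were 3, 2 and 0 without 4 dpi libraries 5, 6 and 7 and 4, 22 and 8 without uninjured inhibitor libraries 5, 6 and 7.

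Collagens and chondroitin sulfate proteoglycans are parts of the matrix of mammalian scars. Of 23 collagens COL17A1 alone was called, a hemidesmosomal collagen of epithelia, with 18, 23.1 and 17 TPM in 4 dpi inhibitor libraries, against 0.962, 4.61 and 0.0877 TPM in uninjured inhibitor libraries (4.3 ± 1, adjusted p = 0.0454, and 0.0507 after scaling). The fibrillar collagen COL3A1, the most abundant, had 1007, 867 and 938 TPM at 4 dpi, against 669.5, 831 and 491 TPM in uninjured inhibitor cords (0.53 ± 0.2, adjusted p = 0.116). COL12A1 had 23.7, 15.7 and 14.6 TPM at 4 dpi, against 1.34, 7.85 and 0.662 TPM in uninjured inhibitor cords (3.1 ± 0.77, adjusted p = 0.0525), where uninjured inhibitor library 6 was far above the other 2. Of 17 scar proteoglycans and partners 2 rose and 2 fell, 11.8% in each direction, against 5.12% and 2.40% of all genes. The brain proteoglycans CSPG5 and BCAN (brevican) fell. CSPG5 had 5.4, 5.2 and 6.91 TPM at 4 dpi, against 10.8, 13.1 and 15.2 TPM in uninjured inhibitor cords (-1.14 ± 0.21, adjusted p = 0.0266). BCAN had 3.6, 3.7 and 3.08 TPM at 4 dpi, against 8.79, 7.37 and 15 TPM in uninjured inhibitor cords (-1.5 ± 0.29, adjusted p = 0.0292). NCAN, neurocan, rose and had 10.4, 14.4 and 14.1 TPM at 4 dpi, against 4.78, 4.66 and 7.95 TPM in uninjured inhibitor cords (1.18 ± 0.26, adjusted p = 0.0422). CHSY1, a chondroitin synthase, also rose and had 18.9, 22.2 and 17.7 TPM at 4 dpi, against 7.34, 11.4 and 4.04 TPM in uninjured inhibitor cords (1.47 ± 0.35, adjusted p = 0.0487). Both lost the call after scaling (adjusted p = 0.089 and 0.0523). LUM, lumican, the most abundant member, had 1935, 1968 and 1758 TPM at 4 dpi, against 1118, 1333 and 648 TPM in uninjured inhibitor cords (0.93 ± 0.25, adjusted p = 0.0614). COL17A1, CSPG5, BCAN, NCAN and CHSY1 were called in no fit that left out an injured library. Without uninjured inhibitor library 6, 11 of 23 collagens and 5 of 17 scar genes were called higher, against 3113 of all 12550 genes.

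Skin and keratin genes, listed because skin can be carried along when small cords are dissected, were higher in 9 of 29 members and lower in none, with a median of 1.18 (0.92 and 4 higher calls after scaling). KRT17 is a keratin of stressed and wounded epithelium. It had 163, 345 and 256 TPM in 4 dpi inhibitor libraries, against 25.1, 17.5 and 19.2 TPM in uninjured inhibitor libraries (log2 fold change 3.57 ± 0.29, adjusted p = 0.00448). Every injured library was more than 6-fold above every uninjured inhibitor library. CLDN4, a claudin of epithelial tight junctions, had 8.76, 23.6 and 16 TPM at 4 dpi, against 1.92, 2.15 and 1.31 TPM in uninjured inhibitor cords (3.02 ± 0.38, adjusted p = 0.00998). KRT15, a basal keratin, had 217, 446 and 257 TPM at 4 dpi, against 135, 108 and 57.9 TPM in uninjured inhibitor cords (1.63 ± 0.37, adjusted p = 0.0436). Desmosome genes were called too, DSP and DSG2 at 1.08 ± 0.24 and 1.07 ± 0.23, PKP1 and PKP3 at 2.11 ± 0.5 and 1.91 ± 0.34, and JUP at 1.6 ± 0.39. In all of these 4 dpi library 6 was the highest. KRT79, the most abundant member, had 1490.3, 4828 and 2129 TPM at 4 dpi, against 2530.04, 1343 and 692 TPM in uninjured inhibitor cords and overlapped, and the epidermal regulator TP63 had 1.47, 4.25 and 2.79 TPM at 4 dpi, against 1.47, 0.768 and 0.298 TPM in uninjured inhibitor cords (1.73 ± 0.61, adjusted p = 0.105). The summed level was 5988, 13789.5 and 8379 TPM at 4 dpi, against 6668, 4294 and 2379 TPM in uninjured inhibitor cords, and overlapped between groups. How much of these changes came with skin in the samples was not tested. Members called were 3, 1 and 1 without 4 dpi libraries 5, 6 and 7 and 7, 12 and 2 without uninjured inhibitor libraries 5, 6 and 7.

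Among the 15 genes with the largest increases under the rule for named genes were some known from epithelia. ZPLD1 is a zona pellucida domain protein. It had 723, 1179 and 1179 TPM in 4 dpi inhibitor libraries, against 22.6, 256 and 15.3 TPM in uninjured inhibitor libraries (log2 fold change 4.48 ± 0.94, adjusted p = 0.0365). Uninjured inhibitor library 6 held more than 10 times the level of the other 2 of its group. UPK2, a uroplakin, had 10.6, 10.6 and 9.51 TPM at 4 dpi, against 0.466, 0.869 and 0 TPM in uninjured inhibitor cords (4.77 ± 0.77, adjusted p = 0.0192). KRT10, a keratin of the upper epidermis, had 11.5, 25.7 and 16.7 TPM at 4 dpi, against 2.38, 1.44 and 0 TPM in uninjured inhibitor cords (4.56 ± 1.09, adjusted p = 0.0487, and 0.0585 after scaling). ELF3, an epithelial transcription factor, had 39.7, 48.7 and 42.1 TPM at 4 dpi, against 9.5, 8.01 and 1.11 TPM in uninjured inhibitor cords (3.26 ± 0.72, adjusted p = 0.0407). Others are not known as epithelial genes. LEP is the hormone leptin. It had 31, 36.2 and 43.8 TPM in 4 dpi inhibitor libraries, against 0.231, 0.986 and 1.05 TPM in uninjured inhibitor libraries (5.62 ± 0.47, adjusted p = 0.005), a difference of more than 25-fold between the nearest libraries. APOD, the lipid carrier apolipoprotein D, had 182, 211 and 320.5 TPM at 4 dpi, against 5.89, 58.5 and 6.66 TPM in uninjured inhibitor cords (4.11 ± 0.81, adjusted p = 0.0299), again with uninjured inhibitor library 6 nearest to the injured cords. RRAD, a small GTPase of muscle, had 58.2, 41.4 and 76.3 TPM at 4 dpi, against 4.96, 7.27 and 6.12 TPM in uninjured inhibitor cords (3.21 ± 0.26, adjusted p = 0.00448). ASGR1, a galactose-binding lectin receptor, had 10.6, 12.9 and 7.16 TPM at 4 dpi, against 1.72, 0.982 and 0.503 TPM in uninjured inhibitor cords (3.25 ± 0.43, adjusted p = 0.0111). CLEC4M and CPN2 had among the smallest p-values. CLEC4M, a C-type lectin receptor, had 75.2, 75.9 and 85.3 TPM at 4 dpi, against 17.1, 17.5 and 12.9 TPM in uninjured inhibitor cords (2.32 ± 0.18, adjusted p = 0.00448). CPN2, a subunit of carboxypeptidase N, had 43.6, 44.5 and 50.1 TPM at 4 dpi, against 10.3, 11.2 and 10.02 TPM in uninjured inhibitor cords (2.12 ± 0.15, adjusted p = 0.00448). Library 6 of the uninjured group lay with its group for LEP, RRAD, CLEC4M and CPN2, and apart from it for ZPLD1 and APOD.

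The single largest change among genes of at least 10 TPM was that of HSPA1A, the inducible heat shock protein 70, with 6.81, 263 and 497 TPM in 4 dpi inhibitor libraries, against 0, 0.72 and 0.307 TPM in uninjured inhibitor libraries (log2 fold change 8.23 ± 1.55, adjusted p = 0.0276). The 3 injured libraries spread over more than 70-fold, and the size of the change depends on the 0.1 TPM added before taking logs, since the gene was near 0 in uninjured inhibitor cords. HSPA1L, a near copy with which contigs may have been shared, had 2.12, 92.2 and 162 TPM at 4 dpi, against 0.662, 0.861 and 0.784 TPM in uninjured inhibitor cords (5.22 ± 1.42, adjusted p = 0.0629). BAG3, a partner of heat shock protein 70, had 34.9, 36.1 and 29.4 TPM at 4 dpi, against 16.6, 19.9 and 16.5 TPM in uninjured inhibitor cords (0.92 ± 0.17, adjusted p = 0.0266). HSPA1A and BAG3 were the 2 calls among 43 protein folding and heat shock genes, whose median was 0.20 (-0.07 after scaling). Of 27 growth arrest and p53 response genes 3 were higher and none lower. CDKN1A, the cell cycle inhibitor p21, had 5.84, 5.39 and 6.02 TPM at 4 dpi, against 0.884, 1.42 and 0.201 TPM in uninjured inhibitor cords (2.93 ± 0.57, adjusted p = 0.0298). PMAIP1, a death gene of the BCL2 family, had 4.88, 9.46 and 7.59 TPM at 4 dpi, against 1.3, 1.95 and 1.63 TPM in uninjured inhibitor cords (2.07 ± 0.31, adjusted p = 0.0151). BAX, an effector of cell death, had 33, 39.5 and 32.7 TPM at 4 dpi, against 19.7, 23.3 and 20.4 TPM in uninjured inhibitor cords (0.73 ± 0.16, adjusted p = 0.0432). After scaling 4 members of that list were called lower and 2 higher. Of the 27, PMAIP1 alone was called without 4 dpi library 5 and none without library 6 or 7. Without uninjured inhibitor library 6, 11 of the 27 were higher, against 3113 of all 12550 genes.

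Neuron genes were lower in 14 of 32 members and higher in none, with a median of -0.29 (-0.55 after scaling, with the same counts). NEFL is the light neurofilament. It had 94.1, 107 and 81.4 TPM in 4 dpi inhibitor libraries, against 221, 206 and 242 TPM in uninjured inhibitor libraries (log2 fold change -1.25 ± 0.16, adjusted p = 0.00998). SNAP25, a part of the synaptic vesicle fusion machinery, had 85.8, 129 and 98 TPM at 4 dpi, against 257, 207 and 313 TPM in uninjured inhibitor cords (-1.31 ± 0.21, adjusted p = 0.0195). STMN2, a tubulin-binding protein of growing axons and the most abundant member, had 772, 962 and 788 TPM at 4 dpi, against 1428, 1556 and 2227 TPM in uninjured inhibitor cords (-1.03 ± 0.19, adjusted p = 0.0267). Its relative STMN3 had 145, 139 and 122 TPM at 4 dpi, against 236, 296 and 302 TPM in uninjured inhibitor cords (-1.03 ± 0.16, adjusted p = 0.0155). In each of these 4 genes the highest injured library was below the lowest uninjured inhibitor library, and uninjured inhibitor library 6 lay with its group. Of the transmitter genes called, SLC18A3, the vesicular acetylcholine transporter, had 11.1, 9.22 and 6.99 TPM at 4 dpi, against 21, 21.2 and 32.2 TPM in uninjured inhibitor cords (-1.43 ± 0.25, adjusted p = 0.024). SLC17A6, a vesicular glutamate transporter, had 14.7, 13.5 and 14.2 TPM at 4 dpi, against 22.9, 30.9 and 22 TPM in uninjured inhibitor cords (-0.82 ± 0.19, adjusted p = 0.0433). CPLX1, UCHL1, SYT4, ELAVL4, THY1, NEFM and GAP43 fell as well, by 0.70 to 1.24 on the log2 scale. The other 18 members did not pass, and 15 of the 32 had a log2 fold change above 0. By limma 2 of the 32 were higher at an unadjusted p under 0.05, against 3184 of all 12550 genes. SYP, the vesicle protein synaptophysin, had 38.6, 23 and 27.9 TPM at 4 dpi, against 12.5, 53.3 and 12.2 TPM in uninjured inhibitor cords. MAP2, a dendrite protein, had 3.73, 1.4 and 2.32 TPM at 4 dpi, against 0.189, 1.88 and 0.172 TPM in uninjured inhibitor cords. In both uninjured inhibitor library 6 stood above the other 2 of its group. The summed level was 2038, 2198.5 and 1929.85 TPM at 4 dpi, against 3294, 3754 and 4490.5 TPM in uninjured inhibitor cords. Members called lower were 1, 1 and 0 without 4 dpi libraries 5, 6 and 7 and 3, 14 and 8 without uninjured inhibitor libraries 5, 6 and 7. Without uninjured inhibitor library 6, 8 of the 32 were called higher, against 3113 of all 12550 genes.

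**Figure D4:**
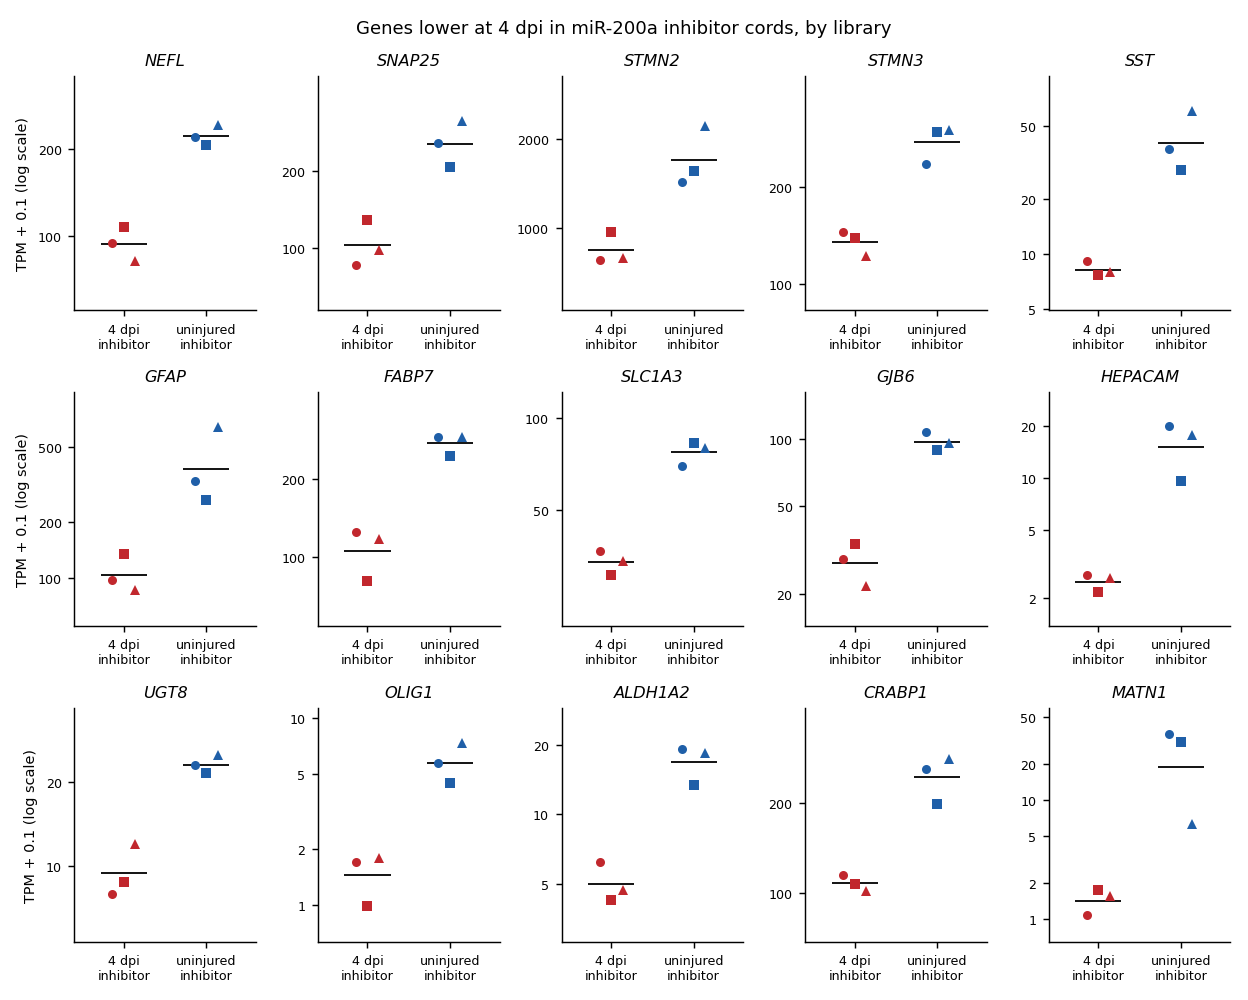
TPM + 0.1 (vertical axes, log scale) of 15 genes called lower at 4 dpi, for the 4 dpi inhibitor libraries (red) and the uninjured inhibitor libraries (blue), with circles, squares and triangles for libraries 5, 6 and 7 and lines for the mean on the log scale. The groups do not overlap in any panel, and MATN1 in uninjured inhibitor cords, from 6.15 to 35.4 TPM, shows a wide spread.

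Synapse and ion channel genes were lower in 2 of 23 members and higher in none, with a median of -0.39, and in 7 after scaling with a median of -0.63. GLRB, the beta subunit of the glycine receptor and the most abundant member, had 42.4, 33.7 and 43.1 TPM at 4 dpi, against 64.1, 61.3 and 62.7 TPM in uninjured inhibitor cords (-0.67 ± 0.16, adjusted p = 0.0485). GRIN2A and GRIA4, glutamate receptor subunits, did not overlap between groups but passed only after scaling (adjusted p = 0.0551 and 0.072 as deposited). In fits without 1 library, 3 members were called lower and 1 higher without uninjured inhibitor library 6, and none in the other 5.

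The genes with the largest decreases included 3 that encode secreted peptides, which were not counted as a list. SST is somatostatin, the peptide of a class of inhibitory neurons. It had 9, 7.56 and 7.82 TPM in 4 dpi inhibitor libraries, against 37.5, 28.6 and 60.3 TPM in uninjured inhibitor libraries (log2 fold change -2.3 ± 0.28, adjusted p = 0.00852). PPY is the symbol of pancreatic polypeptide in the neuropeptide Y family. It had 0.856, 0.824 and 0.783 TPM in 4 dpi inhibitor libraries, against 10.1, 6.64 and 18.4 TPM in uninjured inhibitor libraries (-3.56 ± 0.38, adjusted p = 0.00685). NPPC, the C-type natriuretic peptide, had 152, 139 and 144 TPM at 4 dpi, against 647, 359.7 and 854 TPM in uninjured inhibitor cords (-2.01 ± 0.29, adjusted p = 0.0138). The injured libraries of each of these 3 were close together, and the lowest uninjured inhibitor library was above the highest injured one by more than 2-fold. Other secreted proteins were called lower as well. CBLN4, a cerebellin, had 2.81, 3.72 and 2.36 TPM at 4 dpi, against 11.8, 9.64 and 13.1 TPM in uninjured inhibitor cords (-1.94 ± 0.24, adjusted p = 0.00932). NXPH1, a ligand of neurexins, had 14.8, 14.2 and 15.1 TPM at 4 dpi, against 35.8, 39.6 and 45 TPM in uninjured inhibitor cords (-1.44 ± 0.16, adjusted p = 0.00685). VWC2, a secreted bone morphogenetic protein antagonist made in the nervous system, had 3.08, 4.18 and 3.41 TPM at 4 dpi, against 14.7, 12.3 and 21.1 TPM in uninjured inhibitor cords (-2.11 ± 0.25, adjusted p = 0.00772). NELL1, a secreted matrix-associated protein, had 5.12, 9.86 and 8.64 TPM at 4 dpi, against 35.7, 16.6 and 41.8 TPM in uninjured inhibitor cords (-1.93 ± 0.39, adjusted p = 0.0331). The other genes with the largest decreases or the smallest p-values were VSTM2A, BTBD17, SMIM18, RPRML, LRRC61, SLC13A1, C1QTNF4 and PPP1R14C, with log2 fold changes between -2.41 and -1.3.

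Ependymoglial genes were lower in 3 of 23 members and higher in 1, with a median of 0.11 (-0.15 after scaling). GFAP is the intermediate filament of these cells. It had 97.2, 134 and 85.7 TPM in 4 dpi inhibitor libraries, against 333, 262 and 639.7 TPM in uninjured inhibitor libraries (log2 fold change -1.88 ± 0.33, adjusted p = 0.0244). Its lowest uninjured inhibitor library held nearly 2 times the level of its highest injured one, and uninjured inhibitor library 7 stood above the other 2 of its group. FABP7, a fatty acid binding protein of radial glia, had 124, 80.5 and 116 TPM at 4 dpi, against 289, 246 and 289.6 TPM in uninjured inhibitor cords (-1.38 ± 0.19, adjusted p = 0.0125). SLC1A3, the glial glutamate transporter, had 36.7, 30.6 and 33.9 TPM at 4 dpi, against 69.6, 82.4 and 79.7 TPM in uninjured inhibitor cords (-1.19 ± 0.15, adjusted p = 0.0109). NES, nestin, a filament of neural progenitors, rose instead, with 200.2, 199.5 and 222 TPM at 4 dpi, against 83.6, 144 and 86.8 TPM in uninjured inhibitor cords (1.03 ± 0.22, adjusted p = 0.0394, and 0.0613 after scaling). VIM, vimentin, had 383, 536 and 427 TPM at 4 dpi, against 441, 376 and 534 TPM in uninjured inhibitor cords. SOX2, the transcription factor of neural stem cells, had 26.3, 20.4 and 21.1 TPM at 4 dpi, against 17.9, 26.8 and 22 TPM in uninjured inhibitor cords. Both overlapped between groups. Over the list, the log2 fold change was above 0 for 16 of 23 members, where the median of all genes was itself 0.25. By limma 7 members were higher and 3 lower at an unadjusted p under 0.05, against 3184 higher and 1014 lower of all 12550 genes. Outside the list, GJB6, HEPACAM and PTGDS were called lower, named for the size of their decrease or their p-value. GJB6, the gap junction protein connexin 30, had 28.6, 33.3 and 21.6 TPM in 4 dpi inhibitor libraries, against 108, 89.2 and 96.3 TPM in uninjured inhibitor libraries (-1.83 ± 0.2, adjusted p = 0.00685). HEPACAM, a glial adhesion protein, had 2.64, 2.07 and 2.52 TPM at 4 dpi, against 20.1, 9.5 and 17.7 TPM in uninjured inhibitor cords (-2.6 ± 0.3, adjusted p = 0.00767). PTGDS, a prostaglandin D synthase, had 119, 172 and 135 TPM at 4 dpi, against 616, 331 and 666 TPM in uninjured inhibitor cords (-1.87 ± 0.28, adjusted p = 0.0155). Members called lower were 2, 1 and 0 without 4 dpi libraries 5, 6 and 7 and 1, 3 and 3 without uninjured inhibitor libraries 5, 6 and 7.

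Reactive astrocyte genes, a list drawn from mammalian injury, were higher in 7 of 21 members and lower in 1, GFAP, with a median of 0.55 (0.28 after scaling, with 4 higher). B3GNT5 is a glycosphingolipid synthase. It had 35.9, 38.5 and 38.5 TPM in 4 dpi inhibitor libraries, against 15.7, 18.6 and 12.1 TPM in uninjured inhibitor libraries (1.3 ± 0.2, adjusted p = 0.0155). CLCF1, a cytokine of the ciliary neurotrophic factor receptor, had 6.61, 5.43 and 8.86 TPM at 4 dpi, against 0.904, 2.25 and 0.64 TPM in uninjured inhibitor cords (2.52 ± 0.45, adjusted p = 0.0248). TGM1, a transglutaminase, had 6.72, 7.56 and 5.73 TPM at 4 dpi, against 1.45, 1.87 and 0.331 TPM in uninjured inhibitor cords (2.62 ± 0.55, adjusted p = 0.0365). STAT3, the transcription factor downstream of such cytokines, had 11.3, 11.2 and 10.5 TPM at 4 dpi, against 3.68, 6.72 and 3.59 TPM in uninjured inhibitor cords (1.28 ± 0.27, adjusted p = 0.0359). LGALS1 is galectin 1 and the most abundant member. It had 2314, 2228 and 1987 TPM at 4 dpi, against 2014, 1621 and 1921 TPM in uninjured inhibitor cords and did not pass (0.24 ± 0.13, adjusted p = 0.232). TIMP1, a metalloproteinase inhibitor, had 36.9, 47.5 and 69.2 TPM at 4 dpi, against 48.7, 47.5 and 54.5 TPM in uninjured inhibitor cords. No higher call was left without any 1 of the 3 injured libraries, and 1, 9 and 3 were left without uninjured inhibitor libraries 5, 6 and 7.

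Oligodendrocyte and myelin genes were lower in 3 of 15 members and higher in none, with a median of -0.07 (-0.34 after scaling). UGT8 makes the myelin lipid galactosylceramide. It had 7.82, 8.66 and 11.9 TPM in 4 dpi inhibitor libraries, against 23.1, 21.4 and 24.9 TPM in uninjured inhibitor libraries (log2 fold change -1.3 ± 0.2, adjusted p = 0.0173). ERMN, a cytoskeletal protein of myelinating cells, had 45.3, 43.4 and 58.1 TPM at 4 dpi, against 97.2, 95.7 and 97.7 TPM in uninjured inhibitor cords (-1 ± 0.16, adjusted p = 0.0195). OLIG1, a transcription factor of the lineage, had 1.6, 0.882 and 1.68 TPM at 4 dpi, against 5.62, 4.4 and 7.2 TPM in uninjured inhibitor cords (-1.99 ± 0.33, adjusted p = 0.0207). MBP, the myelin basic protein and the most abundant member, did not follow. It had 732, 566 and 698 TPM at 4 dpi, against 698, 1601 and 299 TPM in uninjured inhibitor cords, with the highest and the lowest value both in uninjured inhibitor cords. The 3 calls were lost without any 1 of the injured libraries and without uninjured inhibitor library 5, and 2 were left without uninjured inhibitor library 7. Among Schwann and neural crest genes POU3F1, a regulator of myelination, was the only call of 14, with 4.58, 4.7 and 3.91 TPM at 4 dpi, against 1.39, 1.48 and 0.505 TPM in uninjured inhibitor cords (2 ± 0.42, adjusted p = 0.0358).

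Genes of retinoic acid synthesis and binding changed in both directions. ALDH1A2 is the enzyme that makes retinoic acid. It had 6.13, 4.13 and 4.59 TPM in 4 dpi inhibitor libraries, against 19.1, 13.3 and 18.4 TPM in uninjured inhibitor libraries (log2 fold change -1.76 ± 0.23, adjusted p = 0.0111). CRABP1 holds retinoic acid in cells. It had 115, 108 and 102 TPM at 4 dpi, against 259, 198 and 279.8 TPM in uninjured inhibitor cords (-1.17 ± 0.17, adjusted p = 0.0136). Its relative CRABP2 went the other way, with 153, 155 and 104 TPM at 4 dpi, against 51.4, 85.7 and 45.7 TPM in uninjured inhibitor cords (1.21 ± 0.28, adjusted p = 0.0437). RBP4, the retinol carrier of serum and the most abundant of its list, had 158, 383 and 259 TPM at 4 dpi, against 776, 361 and 530.2 TPM in uninjured inhibitor cords and did not pass (-1.08 ± 0.37, adjusted p = 0.0996). The 30 genes of NOTCH, hedgehog and retinoic acid signaling held 2 higher calls, CRABP2 and the hedgehog receptor component SMO at 0.83 ± 0.19, and 3 lower calls, and their median was 0.60 (0.33 after scaling, with 1 higher and 4 lower). Members called lower were 1, 0 and 0 without 4 dpi libraries 5, 6 and 7 and 1, 4 and 3 without uninjured inhibitor libraries 5, 6 and 7.

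WNT, FGF and BMP signaling held 5 higher and 1 lower calls among 37 members, with a median of 0.50 (0.25 after scaling). DKK1 is a secreted WNT inhibitor. It had 5.1, 3.85 and 2.72 TPM in 4 dpi inhibitor libraries, against 0.235, 0.359 and 0.582 TPM in uninjured inhibitor libraries (log2 fold change 3.04 ± 0.45, adjusted p = 0.0148). Its relative DKK3, the most abundant member, fell and had 38.8, 57.8 and 42.6 TPM at 4 dpi, against 121, 79 and 147 TPM in uninjured inhibitor cords (-1.29 ± 0.26, adjusted p = 0.0338). The ligands WNT5A and WNT5B both rose. WNT5A had 16.3, 14.1 and 16.7 TPM at 4 dpi, against 2.65, 7.49 and 2 TPM in uninjured inhibitor cords (2.16 ± 0.44, adjusted p = 0.0345). WNT5B had 8.53, 5.48 and 7 TPM at 4 dpi, against 1.23, 2.66 and 0.496 TPM in uninjured inhibitor cords (2.43 ± 0.53, adjusted p = 0.0394). ETV4, a target of FGF signaling, had 16.8, 18.8 and 16.1 TPM at 4 dpi, against 6.94, 11 and 7.31 TPM in uninjured inhibitor cords (1.05 ± 0.22, adjusted p = 0.0363). LEF1, a partner of beta-catenin, had 2.72, 2.69 and 2.88 TPM at 4 dpi, against 1.1, 1.12 and 0.562 TPM in uninjured inhibitor cords (1.53 ± 0.37, adjusted p = 0.0491). Of 43 axon guidance genes only RTN4R, the receptor for the myelin inhibitor Nogo, was called, with 3.19, 2.93 and 2.73 TPM at 4 dpi, against 6.66, 6.19 and 7.26 TPM in uninjured inhibitor cords (-1.16 ± 0.2, adjusted p = 0.0217). None of the 37 signaling genes was called without any 1 injured library, and 1, 12 and 1 were higher without uninjured inhibitor libraries 5, 6 and 7. RTN4R was called as lower without uninjured inhibitor library 6 only.

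Of 42 mitosis genes 4 (9.52%) were higher, against 5.12% of all genes, and none was lower, with a median of 0.47 (0.20 after scaling). The 2 groups did not overlap for 25 of the 42 in the higher direction, against 29.8% of all genes, and 22 were higher at an unadjusted p under 0.05. KIF11 is the spindle motor. It had 247, 301 and 229 TPM in 4 dpi inhibitor libraries, against 137, 171 and 124 TPM in uninjured inhibitor libraries (0.85 ± 0.18, adjusted p = 0.0359). TOP2A, the topoisomerase of dividing cells, had 8.03, 11.1 and 5.75 TPM at 4 dpi, against 1.51, 3.88 and 1.01 TPM in uninjured inhibitor cords (2.08 ± 0.48, adjusted p = 0.0459), and the kinetochore genes CENPF and NUF2 had log2 fold changes of 1.07 ± 0.25 and 1.02 ± 0.24. MKI67, the usual marker of cycling cells, had 33, 35.2 and 30.2 TPM at 4 dpi, against 17.8, 24.9 and 15.1 TPM in uninjured inhibitor cords (0.79 ± 0.21, adjusted p = 0.0614). Of 46 DNA replication genes 2 were higher, GMNN at 0.8 ± 0.17 and POLE2 at 0.6 ± 0.14, with a median of 0.16 (-0.09 after scaling, with none called). PCNA, the replication clamp, had 199, 218 and 180.2 TPM at 4 dpi, against 178, 171 and 222 TPM in uninjured inhibitor cords, overlapping between groups. No mitosis or replication gene was called when any library other than uninjured inhibitor library 6 was left out. Without that library 14 of 42 mitosis and 4 of 46 replication genes were called as higher, against 3113 of all 12550 genes.

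Motile cilia genes, active in ependymal cells, were lower in 2 of 31 members and higher in none, with the lowest median of all lists, -0.43 (-0.70 after scaling). TPPP3 is a tubulin polymerizing protein. It had 18.4, 14.9 and 17.5 TPM in 4 dpi inhibitor libraries, against 26.5, 35.3 and 39.2 TPM in uninjured inhibitor libraries (-0.97 ± 0.2, adjusted p = 0.0341). ARMC4 docks outer dynein arms. It had 1.61, 2.06 and 1.42 TPM at 4 dpi, against 3.63, 3.52 and 4.59 TPM in uninjured inhibitor cords (-1.16 ± 0.27, adjusted p = 0.0451). RSPH9, a radial spoke protein, had 2.04, 5.88 and 3.42 TPM at 4 dpi, against 8.94, 8.56 and 16.4 TPM in uninjured inhibitor cords (-1.62 ± 0.42, adjusted p = 0.0556). CFAP45, the most abundant member, had 52.1, 75.1 and 51.8 TPM at 4 dpi, against 123, 67.1 and 172 TPM in uninjured inhibitor cords (-0.94 ± 0.34, adjusted p = 0.11). FOXJ1, the transcription factor that switches on motile cilia, ran the other way without passing, at 3.02, 2.85 and 2.41 TPM at 4 dpi, against 0.717, 1.98 and 0.599 TPM in uninjured inhibitor cords. The summed level was 273 to 311 TPM at 4 dpi, against 368 to 556 TPM in uninjured inhibitor cords. In fits without 1 library, 7 members were lower and 2 higher without uninjured inhibitor library 6, and none in the other 5.

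Targets known for the miR-200 family were higher in 2 of 36 members and lower in none, with a median of 0.49 (0.22 after scaling), a share near the 5.12% of all genes. The list covers the family and not miR-200a alone, while the study's inhibitor lowered miR-200a and left miR-200b unchanged. The called members were FN1, given above, and KLF11, a zinc finger repressor. KLF11 had 10.7, 10.9 and 6.91 TPM at 4 dpi, against 4.45, 4.26 and 2.84 TPM in uninjured inhibitor cords (1.28 ± 0.27, adjusted p = 0.0374). ZEB1 and ZEB2, repressors of epithelial genes, overlapped between groups. ZEB1 had 24, 25.6 and 23.5 TPM at 4 dpi, against 17.1, 24.6 and 13.1 TPM in uninjured inhibitor cords. ZEB2 had 7.71, 6.36 and 6.03 TPM at 4 dpi, against 5.43, 8.52 and 5.18 TPM in uninjured inhibitor cords. CFL2, the actin-severing protein cofilin 2 and the most abundant member, had 6812, 6143 and 6769 TPM at 4 dpi, against 5904, 5284 and 4923 TPM in uninjured inhibitor cords (0.29 ± 0.11, adjusted p = 0.117). The inhibitor was given on both sides, but the number and time of injections are not known for the uninjured inhibitor cords. What the inhibitor did to these genes therefore cannot be told from this comparison.

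The study's heat map and qRT-PCR covered 31 of the tested genes, 5 of which were higher and 4 lower here. They were chosen by the authors partly on the 4 dpi inhibitor libraries, so the counts are not independent of these samples. The study's RNA-seq set 4 dpi inhibitor and 4 dpi control cords each against uninjured cords. Its qRT-PCR of gliosis and scar genes set inhibitor against control cords at 4 dpi. The comparison here is another one, with uninjured inhibitor cords, so its values do not test those of the study. JUNB, FN1, GFAP, CSPG5, BCAN and NEFM were described above. TNFAIP2, a gene induced by tumor necrosis factor, had 11.1, 16.2 and 14 TPM at 4 dpi, against 3.17, 5.08 and 1.75 TPM in uninjured inhibitor cords (2.12 ± 0.37, adjusted p = 0.0239). TLR2, a receptor for bacterial lipoproteins, had 11.8, 11.5 and 8.26 TPM at 4 dpi, against 4.97, 4.4 and 4.01 TPM in uninjured inhibitor cords (1.21 ± 0.21, adjusted p = 0.0241). CCL3L3, a macrophage chemokine, had 11.7, 21.4 and 44 TPM at 4 dpi, against 6.74, 4.43 and 8.16 TPM in uninjured inhibitor cords (1.82 ± 0.47, adjusted p = 0.0553). COL21A1, a small collagen, had 5.41, 4.8 and 4.84 TPM at 4 dpi, against 2.27, 3.02 and 2.71 TPM in uninjured inhibitor cords (0.89 ± 0.22, adjusted p = 0.0511). CCL3L3 and COL21A1 did not overlap between groups and fell short of the threshold. DCN, the proteoglycan decorin, had 552, 565 and 634 TPM at 4 dpi, against 413, 550.4 and 135 TPM in uninjured inhibitor cords, where uninjured inhibitor library 7 was far below the rest (0.89 ± 0.46, adjusted p = 0.211). CNTN1, CHL1, CLSTN1 and NEFH, genes of axon growth and adhesion, overlapped between groups, and in all 4 uninjured inhibitor library 6 was above library 7. LOXL1, HYAL4, ADAM23, ITGBL1, ITGAD, CD151, ITGB1BP1, ITGB3BP, CSPG4 and COL4A1 did not pass either. Of the 31, 2, 0 and 0 were higher without 4 dpi libraries 5, 6 and 7.

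Tissues around the cord were described by 5 lists, with called shares to be read against 5.12% higher and 2.40% lower of all genes. Of 43 skeletal muscle genes 2 were higher (4.65%). TRIM63 is a ubiquitin ligase of muscle wasting. It had 81.5, 70.3 and 46.6 TPM in 4 dpi inhibitor libraries, against 9.36, 14.7 and 15.3 TPM in uninjured inhibitor libraries (log2 fold change 2.32 ± 0.28, adjusted p = 0.00837). MYF5, a factor of muscle progenitors, had 15.4, 18.1 and 15 TPM at 4 dpi, against 7, 10.8 and 6.3 TPM in uninjured inhibitor cords (1.04 ± 0.24, adjusted p = 0.0437). The member that was lower, the troponin TNNT1, had 59.6, 60.2 and 64.2 TPM at 4 dpi, against 101, 107 and 92.5 TPM in uninjured inhibitor cords (-0.71 ± 0.14, adjusted p = 0.0299). The list's median was 0.00 (-0.27 after scaling, with 5 lower). Of 22 cartilage and notochord genes 2 were higher (9.09%) and 1 was lower. MATN1, the cartilage protein matrilin 1, fell, with 0.969, 1.63 and 1.45 TPM at 4 dpi, against 35.4, 30.8 and 6.15 TPM in uninjured inhibitor cords (-3.74 ± 0.63, adjusted p = 0.021). Its relative MATN3 rose, with 7.42, 5.76 and 7.51 TPM at 4 dpi, against 2.04, 1.62 and 1.14 TPM in uninjured inhibitor cords (2.07 ± 0.28, adjusted p = 0.0117). The notochord factor T, brachyury, had 4.86, 6.69 and 5.84 TPM at 4 dpi, against 2.01, 1.76 and 2.58 TPM in uninjured inhibitor cords (1.42 ± 0.25, adjusted p = 0.024). Of 31 fibroblast and connective tissue genes 3 (9.68%) were higher. THBS1 and THBS2, secreted thrombospondins, and TWIST1, a mesenchymal factor, rose, by 2.72 ± 0.53, 1.47 ± 0.3 and 1.31 ± 0.24. For THBS1, with 26.2, 23.1 and 23.4 TPM at 4 dpi, uninjured inhibitor cords had 2.62, 9.33 and 1.85 TPM. Of 24 endothelial genes 2 (8.33%) were higher. CDH5, the adhesion protein of vessel walls, and ETS1 rose, by 1.59 ± 0.34 and 1.21 ± 0.27. None of 12 erythroid genes was called by limma. An unadjusted p under 0.05 was reached by 6 that were higher and 1 that was lower. Over all 12550 genes, 3184 were higher and 1014 lower at that threshold. Without uninjured inhibitor library 6, 15 of 43 muscle, 10 of 31 fibroblast and 8 of 24 endothelial genes were higher, against 3113 of all 12550 genes. TRIM63 stayed called without 4 dpi library 5, without library 7 and without uninjured inhibitor library 5, 6 or 7.

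The effect of injury was set beside that in cords without the miR-200a inhibitor, 4 dpi control over uninjured libraries, which share no library with it. Of the 641 genes called higher that also had a value there, 537 (83.8%) had a positive log2 fold change in control cords, against 46.6% of all 12494 genes with both values. Of the 301 called lower, 274 (91.0%) had a negative one, against 53.4% of all genes. The median in control cords was 0.64 for the genes called higher, -0.71 for those called lower and -0.05 for all. Lists did not keep the same order. Microglia and macrophage genes had a median of 1.06 in inhibitor cords and 2.23 in control cords, and granulocyte genes 1.78 and 1.81. AP-1 and immediate early genes had 1.41 in inhibitor cords and 0.27 in control cords, skin and keratin genes 1.18 and 0.20, and neuron genes -0.29 and -0.95. The libraries of control cords were uneven. Neuron genes summed to 19873, 3409 and 6541 TPM in uninjured libraries 1, 2 and 5, and to 7827, 3650 and 4682 TPM in 4 dpi control libraries 1, 5 and 6. The sums of AP-1 and of skin genes overlapped between these groups as well. The title of the uninjured library numbered 2 here gives no replicate number. The inhibitor libraries held 11074 to 12942 symbols at 1 TPM, and the other libraries 13279 to 14216. Differences between the medians were not tested.

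The difference between the 2 injury effects was tested gene by gene as the interaction of injury and inhibitor over all 12 libraries. It was called for 6 of 13824 genes (0.0434%), 4 of them with a higher log2 fold change in inhibitor cords and 2 with a lower one, and 1130 genes had an unadjusted p under 0.05. LYZ had 1609.6, 1744 and 1906 TPM in 4 dpi inhibitor cords, against 715, 614 and 718 TPM in uninjured inhibitor cords, and 807, 954 and 817 TPM in 4 dpi control cords, against 77.9, 89.5 and 87.5 TPM in uninjured cords. PLBD1 had 129, 148 and 148 TPM in 4 dpi inhibitor cords, against 63.4, 45 and 41.8 TPM in uninjured inhibitor cords, and 102, 79.6 and 129 TPM in 4 dpi control cords, against 5.32, 2.99 and 4.1 TPM in uninjured cords. Both genes rose after injury in inhibitor cords, and their uninjured inhibitor libraries stood well above all 3 uninjured libraries. C1QTNF9, a secreted relative of adiponectin, had 17.1, 18.4 and 8.41 TPM in 4 dpi inhibitor cords, against 0, 1.17 and 0.2 TPM in uninjured inhibitor cords, and 1.98, 0.798 and 0.278 TPM in 4 dpi control cords, against 47.8, 19.9 and 24.3 TPM in uninjured cords. C1QTNF2, of the same family, had 18.6, 30.3 and 32.5 TPM in 4 dpi inhibitor cords, against 7.4, 8.45 and 0.906 TPM in uninjured inhibitor cords, and 2.48, 2.73 and 1.21 TPM in 4 dpi control cords, against 41, 105 and 28.5 TPM in uninjured cords. Both were lowest in uninjured inhibitor and 4 dpi control cords. FNDC7, a fibronectin type III domain protein, had the same shape, with 4.73, 5.68 and 4.89 TPM in 4 dpi inhibitor cords, against 0.0545, 1.01 and 0.261 TPM in uninjured inhibitor cords, and 0.885, 0.731 and 0.494 TPM in 4 dpi control cords, against 6.64, 52 and 6.17 TPM in uninjured cords. IL27, a cytokine subunit, had 3.99, 5.73 and 5.46 TPM in 4 dpi inhibitor cords and was listed at 0 in all 3 uninjured inhibitor libraries, with 9.67, 4.36 and 6.89 TPM in 4 dpi control cords, against 3, 9.74 and 8.13 TPM in uninjured cords. The labels do not say that the uninjured cords were injected, so injection and inhibitor cannot be told apart in this test. Without 4 dpi inhibitor library 5 or 6 no gene was called by limma, with 669 and 808 genes at an unadjusted p under 0.05. Without uninjured inhibitor library 6, 11 genes were called, with 2199 at that unadjusted threshold. Without both libraries numbered 1, 5 genes were called, with 2470 at that threshold. Over all alternatives the unadjusted count ran from 480, without 4 dpi control library 6, to 3410 with the replicate block. No other difference between inhibitor and control cords, those of HSPA1A, ZPLD1 and APOD included, passed the adjustment.

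**Figure D5:**
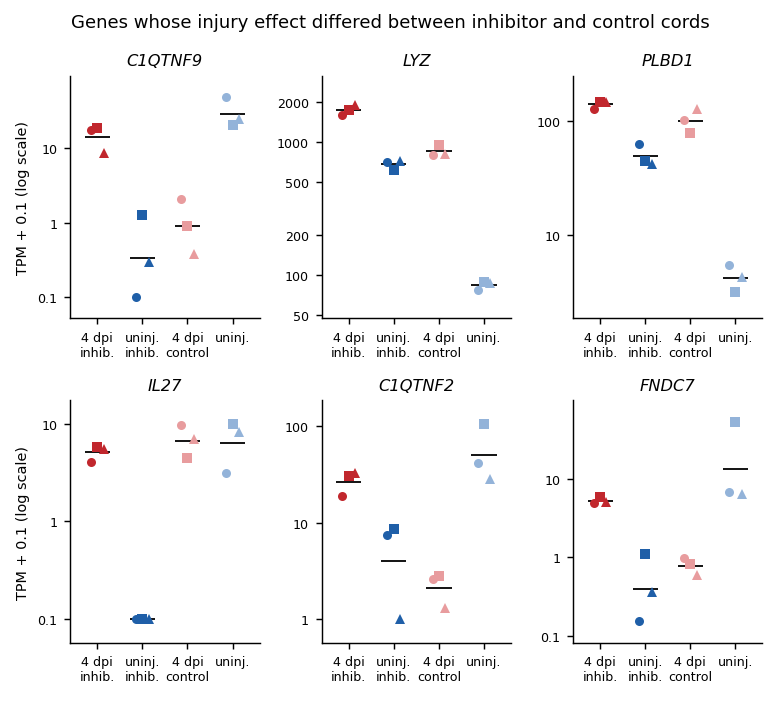
TPM + 0.1 (vertical axes, log scale) of the 6 genes whose injury effect differed between inhibitor and control cords, with the 4 dpi inhibitor, uninjured inhibitor, 4 dpi control and uninjured libraries side by side, a symbol per library and lines for the mean on the log scale. LYZ and PLBD1 are lowest in uninjured cords, and IL27 is listed at 0 in all 3 uninjured inhibitor libraries and drawn at 0.1.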

How the data were processed

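RNA was sequenced from 12 pooled axolotl spinal cord libraries. Per the study's methods, pooled reads were assembled de novo, contigs were named by their best human protein match, reads were aligned with Bowtie 0.12.1 and quantified with RSEM 1.1.6, and the authors summed contigs per gene symbol and deposited TPM, which sum to 1000000 per library and keep no depth. The strand of the counting is not given in the sources used here. All 12 value columns were matched to samples by name, and 25 symbols stored as dates were restored.

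The 6 inhibitor libraries were compared with limma 3.58.1 in R 4.3.3 on log2(TPM + 0.1) with a variance trend, over genes averaging 1 TPM or more, two-sided, with Benjamini-Hochberg adjustment and 4 residual degrees of freedom. A fold change on this scale understates the change of low genes. Since nothing says that pools of a group came from separate clutches or days, p-values measure only the spread between these pools. The interaction used all 12 libraries and 8 residual degrees of freedom. Tables were handled with pandas 2.3.3 and numpy 2.4.6 in Python 3.11.15, and the fit was tested on simulated data. The simulation drew the errors of each gene independently, so it does not cover shifts of whole libraries such as that of uninjured inhibitor library 6. The study's own analysis used DESeq2 1.16.1 on counts, which were not used here.

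Named genes are, per direction, the 15 with the largest change and the 8 with the smallest p among called genes of at least 10 TPM in the higher group, up to 4 members per list with the smallest p, the most abundant member, and the genes of the study, and some genes that meet this rule are not reported here. Another 60 genes, mostly further list members and the genes of the interaction, were chosen after their values were seen, among them JUND, EGR1, MPO, CD68, SYP, SOX2, ZEB1, ZEB2, MKI67 and HSPA1L. Members, lists and tests were chosen with earlier results of these data known. Alternatives covered the pseudocount, the filter, scaling, the variance model, library weights, a replicate block, 12 libraries in the model and leaving out each library.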

Additional observations from a re-analysis of the deposited data

Results flagged for a closer look

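For 6 genes the injury effect in inhibitor cords differed from that in control cords by limma's test of the interaction (n = 3 libraries in each of 4 groups). The difference in log2 fold change, inhibitor minus control cords, was 10.38 for C1QTNF9 (adjusted p = 0.00754), 7.76 for FNDC7 (adjusted p = 0.0434), 7.27 for C1QTNF2 (adjusted p = 0.0267) and 5.58 for IL27 (adjusted p = 0.0132). It was -1.97 for LYZ (adjusted p = 0.00754) and -3.10 for PLBD1 (adjusted p = 0.0105). The size for C1QTNF9, FNDC7 and IL27 depends on the 0.1 TPM added before taking logs, since libraries of uninjured inhibitor cords were at or near 0, and is no bound. For LYZ and PLBD1 the injured libraries were above their uninjured ones in both inhibitor and control cords, while for C1QTNF9, C1QTNF2 and FNDC7 they were above in inhibitor cords and below in control cords. IL27 overlapped between injured and uninjured libraries in control cords.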

How the results depend on the processing

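Counts of genes called higher and lower, 642 and 301 as reported, became 415 and 620 with median-of-ratios scaling, 1027 and 396 with 1 TPM added, 575 and 834 with quantile normalization, 4805 and 1918 with library weights, 73 and 6 with all 12 libraries in the model, and 1955 and 682 at an adjusted p under 0.1. Without 1 library they lay between 13 and 3113 and between 1 and 634. Replicate numbers did not pair the libraries, with correlations of deviations of -0.245, -0.229 and 0.00795 for numbers 5, 6 and 7, and no 4 dpi library correlated best with its own number, while the replicate block left 39 and 3 calls. Chosen after seeing the data, scaling with 12 libraries gave 97 and 66, and scaling with the replicate block 0 and 0. Scaling without 4 dpi inhibitor libraries 5, 6 and 7 gave 7, 2 and 0 higher and 3, 0 and 0 lower, and scaling without uninjured inhibitor libraries 5, 6 and 7 gave 67, 1816 and 216 higher and 27, 1698 and 218 lower. No filter, a mean of 5 TPM or more and no variance trend kept both counts within 1.5 times. The 6 interaction genes became 1 with the replicate block and 0 to 11 without 1 library. The 169 called genes named kept their direction in every alternative, and between 11 and 169 of them stayed called without 1 library. Except with scaling and quantile normalization, their lack of overlap between groups fixes this direction in advance. Sign changes occurred only in named genes that were not called. With scaling these were BTG2 (-0.028), COL4A1 (-0.066), HYAL4 (-0.21), ITGB1BP1 (-0.17), ITGB3BP (-0.0097), LGALS1 (-0.032), NEFH (-0.041), PCNA (-0.198), SOX2 (-0.23) and ZEB2 (-0.16). With quantile normalization they were HYAL4 (-0.395), ITGB1BP1 (-0.060), LTF (-0.25), NEFH (-0.15), SOX2 (-0.17), VIM (0.023) and ZEB2 (-0.22). With library weights they were KRT79 (-0.15), MBP (0.0066), NEFH (-0.043) and TIMP1 (0.16). Without 1 library the log2 fold change changed sign for CNTN1 (-0.18 to 1.4), COL4A1 (-0.34 to 0.64), HYAL4 (-0.095 to 0.33), ITGB1BP1 (-0.036 to 0.24), LTF (-1.48 to 2.28), MBP (-0.68 to 0.53), NEFH (-0.54 to 0.83), PCNA (-0.0046 to 0.19), SOX2 (-0.11 to 0.18), TIMP1 (-0.26 to 0.19), VIM (-0.14 to 0.13) and ZEB2 (-0.030 to 0.32), given as its range over the 6 fits. The cause of these changes was not tested. TPM hold no depth, so the error of counting is unknown, most of all for genes of a few TPM.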

Other observations

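Of 70 oxidative phosphorylation genes, which make up the respiratory chain, NDUFA12 of complex I was the only call, with 318, 577 and 346 TPM at 4 dpi, against 1093, 664 and 1187 TPM in uninjured inhibitor cords (-1.25 ± 0.29, adjusted p = 0.0464), while the median was -0.32, 68 members lay below 0, and 42 lay lower without overlap, against 10.2% of all genes. By limma 28 members were lower and none higher at an unadjusted p under 0.05, against 1014 lower and 3184 higher of all 12550 genes. Counts at this threshold for the lists that follow are to be read against the same numbers. The members summed to 68675 to 82290.1 TPM at 4 dpi, against 90487 to 98884 TPM in uninjured inhibitor cords, without overlap. Of 77 ribosomal protein genes none was called by limma, with 9 lower and none higher at an unadjusted p under 0.05 and a median of -0.14. Of 24 cholesterol synthesis genes MVK, mevalonate kinase, was called lower, with 1.98, 4.19 and 2.78 TPM at 4 dpi, against 7.18, 7.73 and 6.98 TPM in uninjured inhibitor cords (-1.33 ± 0.29, adjusted p = 0.0393), and the median was -0.35. Of 29 glycolysis and hypoxia genes none was called by limma, with 2 higher and 5 lower at an unadjusted p under 0.05. Nor was any of 35 proteasome genes called by limma, with 3 higher at that unadjusted threshold. In control cords the medians of oxidative phosphorylation, ribosomal protein and proteasome genes were 0.14, 0.28 and 0.58, and in inhibitor cords that of proteasome genes was 0.03. The differences between these medians were not tested.

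ARG1, arginase 1, which was outside the rule for named genes and was picked after its values were seen, had 104, 155 and 135 TPM in 4 dpi inhibitor libraries, against 29.7, 12.2 and 17.5 TPM in uninjured inhibitor libraries (2.8 ± 0.33, adjusted p = 0.00762). PLA2G2E, a secreted phospholipase A2, was listed at 0 in all 3 libraries at 4 dpi and had 4.64, 5.57 and 4.23 TPM in uninjured inhibitor cords.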
